A study of Caenorhabditis elegans with 24 samples.

Results

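The 10 genes oma-1, oma-2, puf-5, puf-11, mex-5, rme-2, cbd-1, egg-1, egg-2 and chs-1 of Caenorhabditis elegans act in late oogenesis. They were chosen by symbol, with earlier results of these data known, and all 10 were found among the 16927 genes of the expression table. All 10 also passed the filter on low values, which kept the 14561 genes that reached a group mean of 1 CPM (counts relative to library size) in any group. Growing oocytes store maternal mRNAs under translational repression, take up yolk that the intestine secretes, and build the surface layers from which the eggshell is made. When an oocyte matures and is fertilized, repression of stored mRNAs is released or handed over to other regulators, and a chitin-rich shell is laid down around the zygote. Of the 10 genes, oma-1, oma-2, puf-5, puf-11 and mex-5 encode RNA-binding proteins, rme-2 encodes the yolk receptor, and cbd-1, egg-1, egg-2 and chs-1 encode proteins of the oocyte surface and eggshell.

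Polyadenylated RNA of whole worms had been sequenced in 24 libraries, 3 in each of 8 groups. The strains were wild-type N2 and VC3201, which carries a mutant atfs-1, the gene of the transcription factor that drives the mitochondrial unfolded protein response. Worms of each strain were fed from the first larval stage on control bacteria (empty vector RNAi), on bacteria with RNAi against cco-1, which encodes a cytochrome c oxidase subunit, on bacteria with RNAi against elt-2, which encodes a GATA transcription factor of the intestine, or on a mixture of both RNAi bacteria. Collection followed 2.5 days later, at 20 °C, at L4 or young adulthood, and the stage is not given sample by sample. Because RNAi was by feeding, it was not limited to 1 tissue, and the labels call the samples whole organisms. The labels give elt-2 RNAi bacteria as 50% of the food, whereas the authors' key sheet gives 25%, and both give cco-1 RNAi as 50%. Nothing says that replicates were separate cultures, so a p-value here measures the spread between these samples.

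The deposited values had been normalised to a common distribution, and 1 CPM stood for 8 to 39 reads, as far as tied low values show. This depth moved with the groups, from 8 to 10 reads in VC3201 on control bacteria to 38 to 39 on both RNAi. Replicates correlated at r = 0.995 to 0.998 on the log2 scale. On control bacteria atfs-1 stood at 74.5 ± 3.47 CPM in N2 and at 21.3 ± 1.31 CPM in the mutant (mean ± SD, n = 3). The elt-2 transcript itself stood at 6.52, 8.84 and 15.98 CPM in the 3 VC3201 libraries on elt-2 RNAi, against 16.6, 17.7 and 16.5 CPM on control bacteria, so replicate 3 was hardly below control. On both RNAi it stood at 9.62, 5.14 and 12.4 CPM in VC3201. In N2, elt-2 stood at 17.3 ± 1.70 CPM on control bacteria, 10.5 ± 0.958 on elt-2 RNAi and 8.35 ± 1.61 on both. The cco-1 transcript stood at 346 ± 11.1 CPM on control bacteria, 125 ± 11.3 on cco-1 RNAi, 267 ± 5.30 on elt-2 RNAi and 67.4 ± 3.61 on both in VC3201, and at 292 ± 35.6, 128 ± 5.85, 234.5 ± 25.1 and 72.9 ± 5.99 CPM in N2. All 10 genes were lower with elt-2 RNAi in VC3201 with and without replicate 3 of that group.

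On control bacteria the 10 genes were abundant in both strains. Per kilobase of annotated exon, N2 levels ran from 67.0 CPM for chs-1 and 81.0 CPM for egg-2 to 653 CPM for mex-5 and 741 CPM for cbd-1. Between these lay oma-1 at 217, rme-2 at 219, puf-11 at 301, egg-1 at 388, puf-5 at 430 and oma-2 at 536 CPM per kilobase. In WBcel235, 5 of the genes lie on chromosome IV, in the order rme-2 (5470026 to 5473174), puf-11 (6421585 to 6423497), oma-1 (8888976 to 8890999), cbd-1 (11372991 to 11377627) and mex-5 (13353723 to 13356104), all on the forward strand. The egg genes lie on chromosome III with 1328367 bp and 269 protein-coding genes between them, egg-1 on the forward strand (5728180 to 5730159) and egg-2 on the reverse strand (7058527 to 7060583). On the forward strand, puf-5 lies on chromosome II (8575541 to 8577787), oma-2 on chromosome V (8029439 to 8031214) and chs-1 on chromosome I (7554855 to 7559916). Exons of egg-1 overlap those of B0244.9 on the other strand by 42 bp, and those of chs-1 overlap T25G3.3 on the same strand by 5 bp. Whether the libraries kept strand, and how reads shared by near copies such as oma-1 and oma-2 were counted, is not given in the sources used here.

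In N2 the group means of the 10 genes stayed between 86.4% and 122.8% of control under every RNAi, and puf-5, cbd-1 and mex-5 rose with elt-2 RNAi. In VC3201 the 10 genes stood lower with each RNAi, in the order cco-1, elt-2 and both. Their summed level in N2 was 8801 CPM on control bacteria, 8965 on cco-1 RNAi, 10130 on elt-2 RNAi and 9299 on both. In VC3201 the sums were 8832, 6626, 4653 and 2864 CPM in the same order of RNAi. The VC3201 group on both RNAi was the lowest of the 8 groups for 10 of 10 genes, and its libraries lay below all other libraries for each. The VC3201 group on elt-2 RNAi was second lowest for 10 of 10, and the group on cco-1 RNAi next for 9, the exception being egg-2. What share of all tested genes held this order was not counted, so these counts only describe the 10. Since whole worms were measured, fewer oocytes per worm and less RNA per oocyte cannot be told apart.

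**Figure D1:**
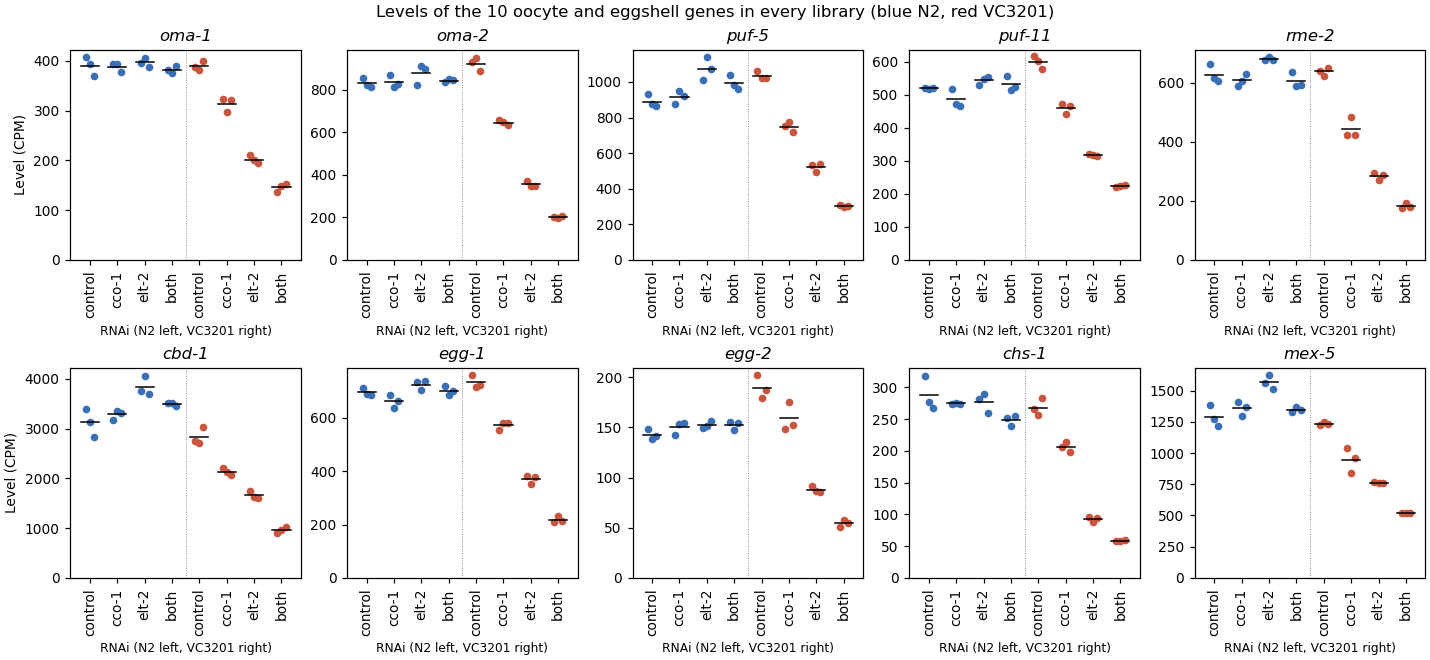
Level of each gene in CPM (vertical axes, each from 0) in every library, with N2 groups in blue at the left and VC3201 groups in red at the right of each panel, ordered by RNAi. Points are libraries and bars are means of 3; the 4 red groups step down from control to both RNAi in 10 of 10 panels, while the blue groups stay between 86.4% and 122.8% of N2 control.

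Among the RNA-binding proteins, oma-1 and oma-2 encode related CCCH zinc-finger proteins that are redundantly required for oocyte maturation and that repress maternal mRNAs. In VC3201, oma-1 stood at 388, 381 and 400 CPM on control bacteria, 323, 297 and 321 on cco-1 RNAi, 210, 200 and 194 on elt-2 RNAi, and 137, 148 and 152 on both. The 4 groups did not overlap. In N2 its 12 libraries ran from 369 to 408 CPM with a median of 391, and in order of level the 4 N2 groups and VC3201 on control bacteria each overlapped the next. The changes in VC3201 were -0.31 on the log2 scale with cco-1 RNAi (SE 0.048, limma adjusted p = 2.39e-06), -0.95 with elt-2 RNAi (adjusted p = 7.32e-17) and -1.10 when elt-2 RNAi was added to cco-1 RNAi (adjusted p = 3.08e-18).

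The partner oma-2 started higher and fell further. VC3201 libraries stood at 930, 948 and 887 CPM on control bacteria, 656, 647 and 631 on cco-1 RNAi, 370, 349 and 349 on elt-2 RNAi, and 202, 195 and 206 on both. No 2 of these groups overlapped. N2 libraries stood at 852, 822 and 813 CPM on control, 869, 813 and 825 on cco-1 RNAi, 822, 911 and 896 on elt-2 RNAi, and 835, 848 and 843 on both, and these groups overlapped throughout. The changes of oma-2 in VC3201 were -0.51 with cco-1 RNAi (SE 0.046, limma adjusted p = 1.4e-10) and -1.37 with elt-2 RNAi (adjusted p = 3.78e-21). With both RNAi, oma-2 stood at 21.8% of its VC3201 control level, 201 ± 5.65 against 922 ± 31.6 CPM.

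Pumilio-family proteins PUF-5 and PUF-11 repress maternal mRNAs in late oocytes. In VC3201, puf-5 stood at 1064, 1020 and 1020 CPM on control bacteria, 750, 777 and 718 on cco-1 RNAi, 534, 493 and 540 on elt-2 RNAi, and 306, 300 and 301 on both, with no overlap between groups. For puf-11 the VC3201 libraries stood at 615, 602 and 576 CPM on control bacteria, 473, 440 and 467 on cco-1 RNAi, 319, 318 and 314 on elt-2 RNAi, and 220, 224 and 226 on both, again without overlap. The change with elt-2 RNAi was -0.99 for puf-5 and -0.91 for puf-11 (limma adjusted p = 1.4e-16 and 3.96e-17). In N2, puf-5 went the other way with elt-2 RNAi. It rose from 890 ± 35.1 to 1073 ± 64.3 CPM, a change of 0.27 (SE 0.051, limma adjusted p = 7.64e-05), with all 3 elt-2 RNAi libraries above all 3 controls. For puf-11 in N2 the same change was 0.06 (adjusted p = 0.247), from 520 ± 2.71 to 544 ± 12.4 CPM.

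The zinc-finger protein MEX-5 sets up the anterior-posterior axis of the zygote. Its transcript fell least of the 10 with elt-2 RNAi in VC3201. Libraries stood at 1221, 1250 and 1232 CPM on control bacteria, 1038, 839 and 959 on cco-1 RNAi, 766, 760 and 760 on elt-2 RNAi, and 517, 520 and 521 on both. The groups did not overlap, and the cco-1 RNAi libraries were the most spread. Log2 changes were -0.39 with cco-1 RNAi (SE 0.058, limma adjusted p = 1.59e-06) and -0.70 with elt-2 RNAi (adjusted p = 6.39e-12). In N2, mex-5 rose with elt-2 RNAi from 1381, 1273 and 1214 CPM to 1564, 1627 and 1509 CPM, a change of 0.28 (adjusted p = 0.00019). Under both RNAi in N2 it stood at 1326, 1372 and 1341 CPM, within the range of the control libraries.

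The yolk receptor gene rme-2 encodes a member of the LDL receptor family through which oocytes take up yolk lipoprotein. VC3201 libraries stood at 642, 624 and 651 CPM on control bacteria, 424, 485 and 424 on cco-1 RNAi, 294, 271 and 289 on elt-2 RNAi, and 175, 192 and 178 on both. All 4 groups were apart from each other, and the last 3 lay below every N2 library. N2 libraries stood at 664, 615 and 607 CPM on control, 590, 607 and 631 on cco-1 RNAi, 677, 686 and 677 on elt-2 RNAi, and 636, 590 and 593 on both. The N2 elt-2 RNAi libraries were above the other N2 libraries, yet the change of 0.11 did not pass the threshold (SE 0.053, limma adjusted p = 0.0797). In VC3201 the changes were -0.53 with cco-1 RNAi (adjusted p = 1.73e-09) and -1.16 with elt-2 RNAi (adjusted p = 6.45e-18). The former was the largest fall of the 10 in that comparison, though within its SE of the -0.51 of oma-2.

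The receptor's ligands, the vitellogenins vit-1 to vit-6, are made in the intestine, and their levels changed unevenly. In N2 with elt-2 RNAi, vit-4 went from 5171 to 226 CPM and vit-2 from 22699 to 3888 CPM, while vit-6 stood at 19460 and 19459 CPM and rme-2 did not pass the test. In VC3201 with elt-2 RNAi, vit-4 went from 2864 to 0.967 CPM, vit-2 from 22701 to 38.6 CPM and vit-6 from 19461 to 384 CPM, beside the fall of rme-2 from 639 ± 13.4 to 285 ± 11.7 CPM. Of 9 genes of yolk proteins and receptor recycling, cco-1 RNAi lowered 4 in N2 by limma, where 16.4% of all tested genes were called lower. Among these 9, vit-4 stood at 347 CPM, but vit-2 at 22698.5 and vit-6 at 19459.6 CPM were level with control. The receptor gene rme-2, not one of the 9, stood at 610 ± 20.6 CPM. In VC3201 with cco-1 RNAi, vit-4 stood at 78.3 CPM and vit-2 at 19460 CPM. Very abundant transcripts such as vit-2 hold rank values of the normalisation, so such a level says only which rank they held. The recycling factor rme-1, which returns receptors to the cell surface, moved in the other direction from rme-2 in VC3201, from 427 CPM on control bacteria to 801 CPM on elt-2 RNAi and 889 CPM on both.

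Of the eggshell genes, cbd-1 encodes a chitin-binding protein of the vitelline layer and was the most abundant of the 10. In VC3201 it stood at 2742, 2703 and 3028 CPM on control bacteria, 2214, 2118 and 2069 on cco-1 RNAi, 1738, 1627 and 1607 on elt-2 RNAi, and 892, 959 and 1030 on both. Each step was without overlap. In N2 it stood at 3404, 3142 and 2833 CPM on control and at 3764, 4064 and 3692 CPM on elt-2 RNAi, a rise of 0.30 on the log2 scale (SE 0.065, limma adjusted p = 0.000353). The VC3201 changes were -0.40 with cco-1 RNAi and -0.77 with elt-2 RNAi (adjusted p = 5.32e-06 and 8.69e-12).

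The chitin synthase gene chs-1, whose product makes the chitin of the eggshell, had the largest fall of the 10 with elt-2 RNAi in VC3201. Libraries stood at 265, 256 and 282 CPM on control bacteria, 207, 214 and 198 on cco-1 RNAi, 95.4, 88.7 and 94.4 on elt-2 RNAi, and 57.5, 58.1 and 59.0 on both. No groups overlapped. In N2 they stood at 318, 277 and 267 CPM on control, 274, 276 and 274 on cco-1 RNAi, 282, 290 and 260 on elt-2 RNAi, and 251, 239 and 255 on both, where the last group was below all other N2 libraries. The change with elt-2 RNAi was -1.52 in VC3201 (SE 0.055, limma adjusted p = 2.2e-20) and -0.05 in N2 (adjusted p = 0.478).

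Transmembrane proteins EGG-1 and EGG-2 of the oocyte surface carry LDL receptor repeats and are needed for fertilization by sperm. In VC3201, egg-1 stood at 760, 716 and 722 CPM on control bacteria, 556, 579 and 579 on cco-1 RNAi, 384, 354 and 379 on elt-2 RNAi, and 208, 233 and 212 on both, without overlap. In N2 its 12 libraries ran from 636 to 739 CPM with a median of 694. The less abundant egg-2 differed between the strains on control bacteria, at 148.8, 138.3 and 141.5 CPM in N2 and 202, 180 and 187 CPM in VC3201. Under cco-1 RNAi in VC3201 it stood at 149, 176 and 152 CPM, below its VC3201 controls but overlapping the N2 libraries on both RNAi, its neighbours in level. On elt-2 RNAi it stood at 91.7, 86.2 and 85.6 CPM and on both at 50.9, 57.8 and 54.9 CPM, below every other library. With elt-2 RNAi the VC3201 changes were -0.98 for egg-1 (SE 0.048, limma adjusted p = 3.11e-17) and -1.10 for egg-2 (adjusted p = 2.22e-16).

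Counted over the 10 genes, cco-1 RNAi in N2 gave no call in either direction by limma, where 33.8% of all tested genes were called. The changes ran from -0.10 to 0.08, and the smallest adjusted p was 0.0884, for puf-11. At 3 libraries a group the 95% confidence interval of the largest fall, that of puf-11, ran from -0.19 to -0.01. In N2 with elt-2 RNAi, 3 of 10 were called, all higher (puf-5, cbd-1 and mex-5), where 48% of all tested genes were called and 26.2% were called higher. When elt-2 RNAi was added to cco-1 RNAi in N2, puf-11 was higher (0.13, adjusted p = 0.0246) and chs-1 lower (-0.14, adjusted p = 0.0416), where 34.1% of genes were called. Both calls were lost when certain single libraries were left out. That of puf-11 was lost without replicate 2 or 3 of cco-1 RNAi or replicate 1 of both RNAi (adjusted p = 0.00466 to 0.147 over its alternatives). That of chs-1 was lost without any 1 of the cco-1 RNAi libraries, without replicate 1 or 2 of both RNAi, without the intensity trend and under median-ratio scaling (0.00763 to 0.169).

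In VC3201, cco-1 RNAi lowered 10 of 10 genes, with changes from -0.53 (rme-2) to -0.26 (egg-2) and a median of -0.38, where 64% of all tested genes were called and 37.1% were called lower. The libraries of the 2 groups were apart for 10 of 10, as for 37.1% of genes in the lower direction. With elt-2 RNAi, 10 of 10 were lower, from -1.52 (chs-1) to -0.70 (mex-5) with a median of -0.98, against a median of -0.18 over all tested genes, of which 85.8% were called and 49.4% called lower. The libraries of these groups were again apart for 10 of 10, and lower without overlap for 50% of all genes. When elt-2 RNAi was added to cco-1 RNAi, 10 of 10 were lower, from -1.81 (chs-1) to -0.86 (mex-5) with a median of -1.29. Over all tested genes 81.1% were called in that comparison, 44.6% were lower and the median was -0.10, and the libraries were apart for 10 of 10 against 45.3% of genes. The 3 comparisons share libraries and are not independent.

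**Figure D2:**
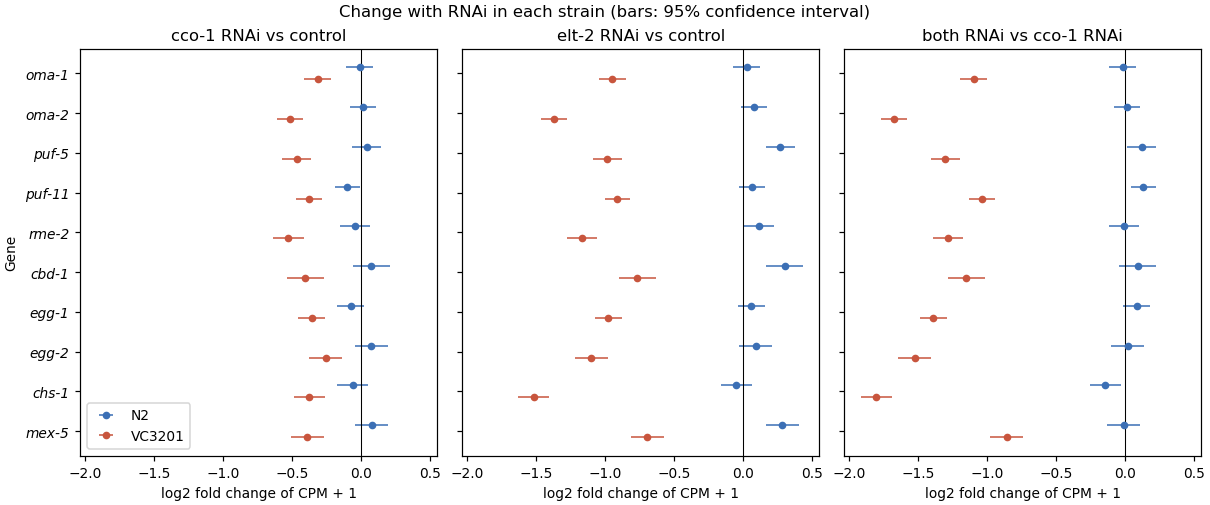
Log2 fold change of CPM + 1 (horizontal axes) of each gene (vertical axis) with cco-1 RNAi, with elt-2 RNAi and with both RNAi against cco-1 RNAi alone, in N2 (blue) and VC3201 (red); bars are 95% confidence intervals of the fit. Red points lie left of 0 for 10 of 10 genes in each panel, from -0.53 to -0.26, -1.52 to -0.70 and -1.81 to -0.86, and blue points lie between -0.14 and 0.30.

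Expressed as levels, VC3201 on cco-1 RNAi held 69.5% to 83.8% of the VC3201 control level over the 10 genes (median 76.8%), on elt-2 RNAi 34.7% to 61.7% (median 50.6%) and on both 21.7% to 42.1% (median 29.5%). Coefficients of variation within groups ran from 0.288% to 10.6% over the 80 combinations of gene and group, with a median of 3.76%.

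The difference between strains was tested directly, as the response in VC3201 less that in N2. For cco-1 RNAi it was negative and called for 10 of 10 genes, from -0.53 (oma-2, limma adjusted p = 2.46e-07) to -0.28 (puf-11, adjusted p = 0.00101), where 40% of all tested genes were called and 23.2% called lower. For elt-2 RNAi it was negative and called for 10 of 10, from -1.47 (chs-1, adjusted p = 1.45e-15) to -0.97 (oma-1, adjusted p = 5.47e-13), where 72.8% of genes were called and 42.1% called lower. The strains also differed before any RNAi. On control bacteria 4 of 10 were higher in VC3201, oma-2 by 0.15, puf-5 by 0.22, puf-11 by 0.20 and egg-2 by 0.41 on the log2 scale (adjusted p = 0.0076, 0.000974, 0.000558 and 1.92e-06), where 49.3% of all genes were called and 26.7% were higher. None of the 10 was called lower in VC3201 on control bacteria. The nearest was cbd-1, at 2825 ± 177 CPM in VC3201 and 3126 ± 286 CPM in N2 (-0.14, adjusted p = 0.0674), which was called lower under 3 of its alternatives.

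Whether the joint effect of both RNAi equalled the sum of the single effects was tested as an interaction within each strain. In VC3201 the interaction was negative for 10 of 10, and 6 were called by limma, where 41.1% of genes were called and 20.1% lower. These were oma-2 at -0.31 (adjusted p = 0.000416), puf-5 at -0.32 (0.000876), cbd-1 at -0.38 (0.00138), egg-1 at -0.41 (1.5e-05), egg-2 at -0.42 (0.000163) and chs-1 at -0.29 (0.00396). For oma-1, puf-11, rme-2 and mex-5 it ran from -0.16 to -0.12 (adjusted p = 0.0782 to 0.215). Against VC3201 control, both RNAi changed the 10 genes by -2.19 (oma-2) to -1.25 (mex-5), whereas the single changes summed to -1.89 (chs-1) to -1.09 (mex-5). The cco-1 transcript was itself lower on both RNAi than on cco-1 RNAi alone, and its interaction was called in VC3201 (-0.51, adjusted p = 0.000446) and in N2 (-0.49, adjusted p = 0.00192), so the arms compared differed in cco-1 level. The part of this in the interaction of the 10 genes was not tested. The call depended on scaling. With libraries rescaled by their median ratio, 10 of 10 were called lower, where 3825 of the 14561 tested genes, not 2930, were called lower. The share of higher among all called genes in this interaction then moved from 51.1% to 37.6%, and the median of all genes from 0.02 to -0.06. In N2 only mex-5 was called, at -0.30 (adjusted p = 0.0143), where 13% of genes were called, and the call was lost without replicate 3 of N2 control (adjusted p = 0.0542, the highest of its alternatives, which began at 0.00479).

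**Figure D3:**
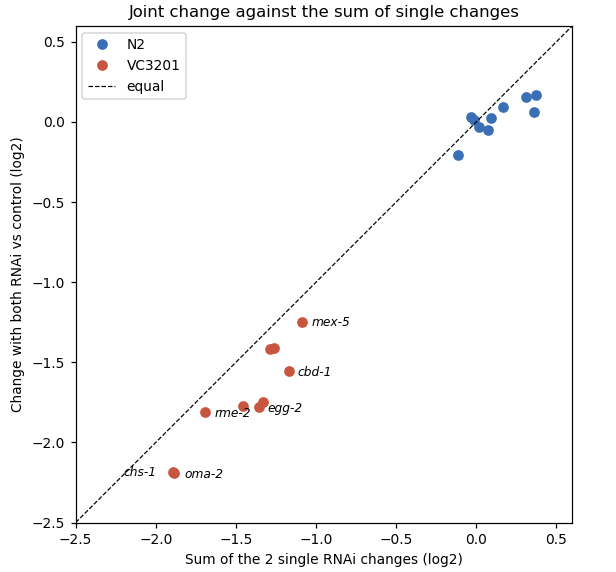
Log2 change with both RNAi against control (vertical axis) against the sum of the 2 single RNAi changes (horizontal axis) for each gene in N2 (blue) and VC3201 (red), with the line of equality dashed. The 10 red points lie below the line, from mex-5 at -1.25 to oma-2 at -2.19, and the blue points cluster near 0.

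Members of related pairs did not fall by the same factor in VC3201. This was measured as the ratio of their CPM within a library, and the 3 pairs were compared after their values had been seen. In VC3201 the ratio of oma-2 to oma-1 was 2.40, 2.49 and 2.22 on control bacteria, 2.03, 2.18 and 1.97 on cco-1 RNAi, 1.76, 1.74 and 1.80 on elt-2 RNAi, and 1.47, 1.32 and 1.35 on both, with no overlap between these groups. In N2 it lay between 2.07 and 2.31 in all 12 libraries. Comparing libraries with and without elt-2 RNAi within each cco-1 RNAi class, the log2 ratio changed by -0.50 in VC3201 (n = 6 against 6, two-sided exact permutation p = 0.005, the smallest that 400 permutations can give, adjusted p = 0.015 over 6 tests). In N2 the change was 0.04 (exact permutation p = 0.185, adjusted p = 0.222).

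The ratio of egg-2 to egg-1 in VC3201 was 0.266, 0.251 and 0.260 on control bacteria and 0.239, 0.244 and 0.226 on elt-2 RNAi, and 0.267, 0.304 and 0.263 on cco-1 RNAi against 0.245, 0.248 and 0.259 on both. Neither pair of groups overlapped, and the change was -0.14 over both cco-1 RNAi classes (exact permutation p = 0.005, adjusted p = 0.015). In N2 its change was -0.02 (exact permutation p = 0.675). The ratio of puf-11 to puf-5 moved the other way in VC3201. It was 0.578, 0.590 and 0.565 on control bacteria and 0.598, 0.645 and 0.583 on elt-2 RNAi, which overlapped, and 0.630, 0.567 and 0.650 on cco-1 RNAi and 0.717, 0.747 and 0.750 on both, which did not. The log2 change was 0.07 without and 0.26 with cco-1 RNAi, a difference that was not tested, and over both classes 0.17 (exact permutation p = 0.01, adjusted p = 0.02). In N2 it was -0.10 (exact permutation p = 0.125, adjusted p = 0.1875). The difference of these changes between the strains was not tested.

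**Figure D4:**
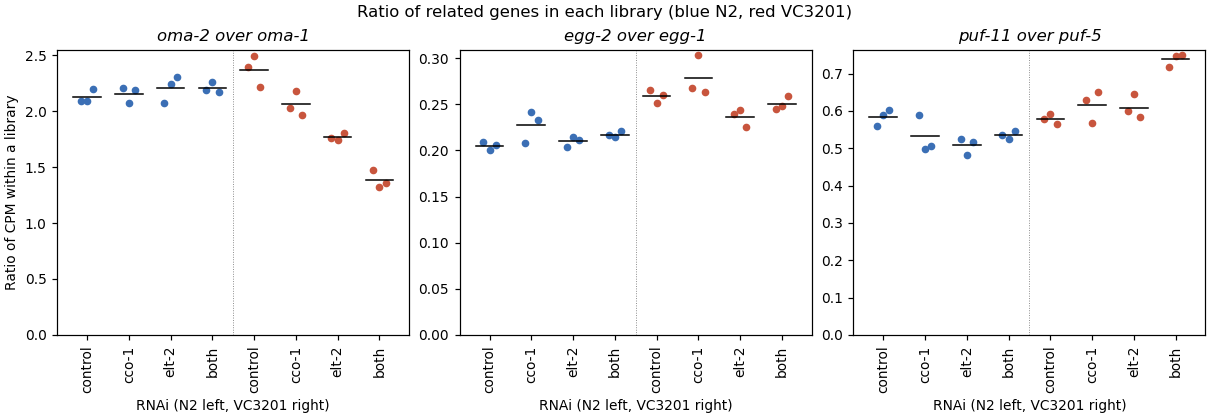
Ratio of CPM within each library (vertical axes, from 0) for oma-2 over oma-1, egg-2 over egg-1 and puf-11 over puf-5, with N2 groups in blue and VC3201 groups in red; points are libraries and bars are means of 3. The oma ratio steps down in VC3201 from a mean of 2.37 on control bacteria to 1.38 on both RNAi.

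Other oocyte genes were read from a list of 29 RNA regulators and meiotic maturation genes that holds none of the 10. Like every gene list used here, it was chosen with earlier results of these data known. In VC3201 with elt-2 RNAi, 26 of the 29 fell and none rose (median -0.81), where 49.4% of all tested genes were called lower, 36.4% were called higher and the median was -0.18. Among them were nos-2, a translational regulator of the germline, from 192 to 83.5 CPM, puf-6 from 94.0 to 35.5 CPM, and the cyclin gene cyb-2.1 from 214 to 99.3 CPM. With cco-1 RNAi in VC3201, 26 of 29 fell as well (median -0.36), where 37.1% of all genes fell, mex-1 from 858 to 600 CPM among them. In N2 with elt-2 RNAi, 15 of 29 rose and none fell (median 0.14), where 26.2% of all genes rose and 21.8% fell, for example pos-1 from 887 to 1230 CPM and the cyclin B gene cyb-1 from 384 to 485 CPM.

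Among 12 other eggshell and egg activation genes, 10 fell and 1 rose in VC3201 with elt-2 RNAi (median -0.94), beside the 49.4% of all genes that fell. The pseudophosphatase gene egg-5 fell from 293 to 109 CPM, egg-3 from 109 to 54.5 CPM and gna-2, which makes a chitin precursor, from 92.4 to 42.3 CPM. The eggshell genes perm-2 and perm-4 stood apart, at 2321 and 1831 CPM on control bacteria, 2477 and 2181 CPM on elt-2 RNAi, but 1282 and 1038 CPM on cco-1 RNAi. The gene that rose was perm-4 (0.26), and without replicate 3 of elt-2 RNAi no gene of this list was called higher. Of 20 general germline markers, 17 fell and 2 rose in VC3201 with elt-2 RNAi (median -0.45, against -0.18 over all genes), and their summed level went from 5688 to 3774 CPM. That of the 10 genes went from 8832 to 4653 CPM.

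Markers of other cell types and stages moved with the same comparisons. In VC3201 with elt-2 RNAi, 20 of 21 tested sperm genes rose (median 1.80), where 36.4% of all genes rose, gsp-3 from 25.1 to 251 CPM, and the summed level of the sperm list went from 287 to 334 CPM in controls to 1344 to 1394 CPM. On cco-1 RNAi this sum was 511 to 564 CPM and on both 1189 to 1255 CPM. In the same comparison 12 of 12 larval molting and cuticle genes rose (median 3.06), the collagen gene sqt-1 from 2.43 to 97.1 CPM, and their sum went from 81.1 to 88.9 CPM in controls to 766 to 861 CPM. It was 174 to 183 CPM on cco-1 RNAi and 1105 to 1156 CPM on both. Transcripts of early embryos fell for 6 of 7 tested genes in VC3201 with elt-2 RNAi (median -1.22), where 49.4% of all genes fell, pes-10 from 4.38 to 0.0441 CPM among them. The gene that rose was tbx-2, from 24.6 to 38.2 CPM, which made up most of the list's summed level of 38.7 and 39.3 CPM in these groups. No marker of these lists was at the table's floor in all libraries of a group. Yet embryo genes that fell were very low on elt-2 RNAi in VC3201, where 1 CPM stood for 34 to 36 reads. There pes-10, end-1, tbx-38, end-3 and tbx-37 stood at 0.0441, 0.0863, 0.103, 0.192 and 0.195 CPM, so these levels rest on few reads.

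The sperm and molting lists were also read beside the 10 genes in N2. With elt-2 RNAi, 16 of 21 sperm genes rose (median 0.59), beside 26.2% of all genes, while 3 of the 10 genes rose and none fell. With cco-1 RNAi, 15 of 21 sperm genes rose (median 0.48), beside 17.5% of all genes, and none of the 10 was called. Of all tested genes in N2, 17.5% rose and 16.4% fell with cco-1 RNAi, and 26.2% rose and 21.8% fell with elt-2 RNAi. Beside these shares, 1 of the 12 molting genes rose and 3 fell with either single RNAi. Their medians were 0.18 for cco-1 RNAi and -0.16 for elt-2 RNAi. Their sums of 192 to 338 CPM over the 4 N2 groups hide moves in both directions, such as noah-1 from 47.8 to 29.02 CPM with cco-1 RNAi and nas-37 from 32.6 to 53.9 CPM with elt-2 RNAi. With the replicate number as a block, 5 molting genes, not 1, were called higher with cco-1 RNAi in N2. The list stood lower in VC3201 on control bacteria, where 11 of 12 genes were below N2 (median -1.76), beside 22.6% of all genes. What share of the falls in VC3201 went with sperm, molting or embryo content was not tested.

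**Figure D5:**
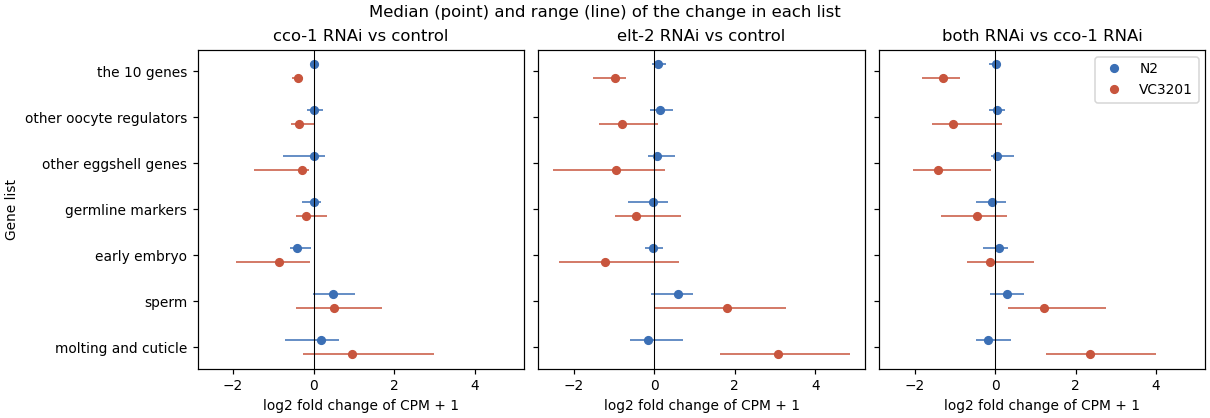
Median (point) and range (line) of the log2 fold change of CPM + 1 (horizontal axes) over the 10 genes and 6 other gene lists (vertical axis) with each RNAi comparison in N2 (blue) and VC3201 (red). In VC3201 the medians of the oocyte, eggshell and germline lists lie left of 0 and those of the sperm and molting lists right of it, and the N2 medians lie between -0.42 and 0.59.

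Profiles over the 8 group means were alike among the 10 genes, each being compared with the mean profile of the other 9. Pearson's r on the log2 scale was highest for oma-2 (0.998) and lowest for egg-2 (0.952), with cbd-1 at 0.969 and mex-5 at 0.972. The 8 points share the strain difference in response, and r is a description only. Among the 7787 other genes that averaged 10 CPM or more, 130 (1.67%) had r above 0.99 with the mean profile of the 10. Of the 10 themselves, puf-11 (0.988), chs-1 (0.989), mex-5, cbd-1 and egg-2 lay below 0.99. Many other genes were at least as alike as the less alike members, 1114 of the 7787 for egg-2, 704 for cbd-1 and 588 for mex-5. For oma-2 it was 5. The most alike were cec-3, a chromodomain protein gene, and R06F6.12, with r = 0.999 each, followed by F40G12.11, the P granule gene meg-1, era-1, the DNA replication gene mcm-3, meg-4, F43G6.10, rmd-1 and F28F8.5. In VC3201, meg-1 went from 207 CPM on control bacteria to 140, 78.0 and 36.6 CPM on cco-1, elt-2 and both RNAi, and cec-3 from 93.5 to 83.6, 64.9 and 51.2 CPM, so that genes with nearly the same profile differed in the size of their fall.

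The authors' deposited table gave fold changes for 6 of these comparisons, 3 in each strain. Its calls at the same threshold matched those above for 10 of 10 genes in each, and its log2 fold changes differed from them by at most 0.018.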

How the data were processed

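RNA of whole worms was sequenced in 24 libraries of 8 groups, 3 each, after polyA enrichment, per the labels' protocols. STAR 2.73a, edgeR 3.24.3 and the build WBcel235 were used per the submitters' processing notes (for the counter and annotation: not given in the sources used here). Values deposited by the authors are normalised counts in CPM, and each library sums to about the same total with nearly the same sorted values, so quantile normalisation is read from the table and library totals are lost. Equal ranks hold equal values, so SDs of abundant genes partly reflect ranks. Log2 fold changes and p-values that the authors deposited (made with Limma-Voom, their key sheet says) were only compared.

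The 14561 genes reaching a group mean of 1 CPM in any group were transformed to log2(CPM + 1), a scale that understates changes of low genes, and fitted as 8 group means with limma 3.58.1 in R 4.3.3 (empirical Bayes with intensity trend, 16 residual degrees of freedom). Tests were two-sided, with Benjamini-Hochberg adjustment over all tested genes in each of 11 comparisons and a threshold of 0.05. The fit was tested on simulated data. Ratios of related genes were tested by exact permutation within cco-1 RNAi classes. All 10 genes and 10 gene lists were chosen with earlier results of these data known. Up to 4 genes per list, those with the smallest p, are named by rule; perm-2, perm-4, rme-1, tbx-2, vit-6, meg-1, cec-3 and the 10 most alike genes are named beside them, the first 5 after their values were seen, and the most alike by their r. Gene positions are those of Ensembl's WBcel235 annotation. No sequence is shown, and none was used here.

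Alternatives were pseudocounts of 0.5 and 5, a minimum of 10 CPM, no filter, no intensity trend, scaling by median ratio, the replicate number as a block, only the groups compared, and each library left out.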

Additional observations from a re-analysis of the deposited data

Results flagged for a closer look

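The results below were singled out because a test of the difference itself, between strains or between RNAi backgrounds, passed the threshold (limma, adjusted p under 0.05). All are log2 differences, and their causes were not tested. Many of all tested genes passed too, 72.8% for the strain difference in response to elt-2 RNAi (42.1% lower) and 40% for that to cco-1 RNAi (23.2% lower). For the interaction, 41.1% passed in VC3201 (20.1% lower) and 13% in N2.

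The response to elt-2 RNAi was lower in VC3201 than in N2 by the following amounts, VC3201 less N2. Among RNA-binding protein genes the difference was -0.97 for oma-1, -1.45 for oma-2, -1.25 for puf-5, -0.98 for puf-11 and -0.98 for mex-5. The yolk receptor gene rme-2 differed by -1.28. Among eggshell genes it was -1.07 for cbd-1, -1.03 for egg-1, -1.19 for egg-2 and -1.47 for chs-1.

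The response to cco-1 RNAi differed in the same direction. The difference was -0.31 for oma-1, -0.53 for oma-2, -0.51 for puf-5, -0.28 for puf-11 and -0.47 for mex-5. It was -0.48 for rme-2, -0.48 for cbd-1, -0.28 for egg-1, -0.33 for egg-2 and -0.31 for chs-1.

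Within VC3201, the response to cco-1 RNAi differed between worms with and without elt-2 RNAi. That difference was -0.31 for oma-2, -0.32 for puf-5, -0.38 for cbd-1, -0.41 for egg-1, -0.42 for egg-2 and -0.29 for chs-1. In N2 it passed the threshold for mex-5, at -0.30, but not without replicate 3 of N2 control (limma adjusted p = 0.0542).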

How the results depend on the processing

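The 110 results (10 genes in 11 comparisons) had 1780 alternatives. Of these, 1751 kept their side of the threshold, 11 lost the call, 18 gained one and 0 changed direction with a call. The 1751 include results without a call whose direction changed, such as oma-1 with cco-1 RNAi in N2, at -0.05 to 0.02 over its alternatives. Counts of called genes stayed at 10 under each alternative for the 3 RNAi comparisons in VC3201 and for both strain differences in response. Leaving out single libraries gave 0 to 1 calls for cco-1 RNAi in N2, 0 to 2 when elt-2 RNAi was added to cco-1 RNAi in N2, 0 to 2 for the interaction in N2, 6 to 9 for that in VC3201, 3 to 4 for elt-2 RNAi in N2 and 4 to 6 for the strain comparison on control bacteria. Without the intensity trend 1 gene was called, not 2, when elt-2 RNAi was added in N2. Under median-ratio scaling 10 genes, not 6, were called in the VC3201 interaction, where 3825 of the 14561 tested genes, not 2930, were called lower. The median of all genes with elt-2 RNAi in VC3201 then moved from -0.18 to -0.04. That of the strain difference in response to elt-2 RNAi moved from -0.13 to -0.01. The 10 genes' changes with elt-2 RNAi in VC3201 ran from -1.36 to -0.53. On that scale 3 regulators, not 0, and 2 eggshell genes, not 1, were called higher with elt-2 RNAi in VC3201. So were 4 markers of the gonadal sheath and spermatheca, not 2, and 2 genes of the yolk list, not 1. Of the markers of other tissues, 2, not 4, were then called lower. With a minimum of 10 CPM no embryo gene was called lower in N2 or VC3201 on single RNAi, since few passed the filter.

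Replicate numbers were not taken to pair the samples, since over 84 same-numbered pairs of different groups r ran from -0.10 to 0.15 and 7 were over 0.1. Yet the median was 0.02, against -0.01 over 168 other pairs, and 16 of 24 libraries correlated best with their own number, a hint from the data and not from the design. With the replicate number as a block, the counts of called genes were 0, 3, 2 and 1 in N2 (cco-1 RNAi, elt-2 RNAi, elt-2 added, interaction), 10, 10, 10 and 6 in VC3201, 4 between strains and 10 for both differences in response, as without it. List counts did move. With the block, 5 molting genes, not 1, were called higher with cco-1 RNAi in N2 and 3, not 0, lower when elt-2 RNAi was added. Counts of 3 other lists moved by 1 gene, where changes small beside a list's count were not taken as moves. Quantile normalisation removed library totals, and intervals cover only the spread between these libraries. The calls on pair ratios held with each library of a strain left out and with CPM + 1, alternatives chosen after seeing the data, as was leaving out replicate 3 of elt-2 RNAi in VC3201 for the lists.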

Other observations

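Of all tested genes, 49.4% fell and 36.4% rose with elt-2 RNAi in VC3201 (median -0.18), and 21.8% fell and 26.2% rose in N2. Counts of 3 further gene lists are set against these shares; their medians in VC3201 lay above the -0.98 of the 10 oocyte genes. Of 11 genes that set the switch from sperm to oocytes, 7 fell and 3 rose with elt-2 RNAi in VC3201 (median -0.21). The gene fem-3, which promotes sperm fate, fell from 59.83 to 25.99 CPM and fog-2, also needed for sperm in hermaphrodites, from 37.3 to 17.5 CPM. The level of fog-3, another gene of sperm fate and named after its values were seen, was 4.99 CPM on control bacteria and 15.4 CPM on elt-2 RNAi. In N2 with elt-2 RNAi, 3 of the 11 rose and 1 fell (median 0.02).

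Of 7 markers of the gonadal sheath and spermatheca, 2 rose and 3 fell with elt-2 RNAi in VC3201 (median 0.18), and 3 rose with none lower in N2 (median 0.13). The innexin gene inx-8, which couples sheath cells to germ cells, stood in VC3201 at 60.0 CPM on control bacteria, 20.2 CPM on cco-1 RNAi, 48.7 CPM on elt-2 RNAi and 22.4 CPM on both, an order unlike that of the 10 oocyte genes. Of 10 markers of other tissues, 6 rose and 4 fell with elt-2 RNAi in VC3201 (median 0.48). Among those that fell was elt-2 itself, the target of the RNAi (-0.73, limma adjusted p = 0.00196). The intestinal esterase gene ges-1 fell from 20.4 to 3.44 CPM, while the intestinal filament gene ifb-2 rose from 89.7 to 349 CPM and the cuticle collagen gene dpy-13 from 5.05 to 153 CPM. Their part in the changes of the oocyte genes was not tested.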
